A study of Mus musculus with 6 samples.

Results

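The sequenced members were the 6 mature miRNAs of the miR-183 cluster, which were the guide strands miR-183, miR-96 and miR-182 and their star strands miR-183*, miR-96* and miR-182*. They were chosen by name, as the rows named after the hairpins Mir183, Mir96 and Mir182 with either arm, and made up 6 of the 1055 mature miRNAs listed. The high read levels of miR-182 and miR-183 over the libraries and their drop in a single library were known when the members were chosen, so these levels are given below as a description without a test. Small RNA was sequenced from whole brains of female siblings on the 129SV strain at 5.5 months of age, with 1 library for each brain. Wild-type mice (AdarB1+/+, n = 3) were compared with Adar2-/- mice (n = 3), which lack the editing enzyme ADAR2, an adenosine deaminase that converts adenosine to inosine in double-stranded RNA. Both genotypes were homozygous for the pre-edited Gria2 allele (Gria2 R/R), which rescues the early death of Adar2-/- mice, so the wild-type mice carried it as well. The comparison asks whether loss of ADAR2 alters the level or the strand use of these miRNAs. Adar2 mRNA was not analysed here, so the genotype labels were not checked against it, and since each library had a sequencing lane of its own, lane and brain cannot be told apart.

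The 3 hairpins of the cluster are transcribed together as a single precursor and cut by Drosha and Dicer, after which the guide strand is loaded into an Argonaute protein and the star strand is mostly degraded. The cluster is best known from sensory cells: it is strongly expressed in hair cells of the inner ear, photoreceptors of the retina and olfactory sensory neurons, as well as in the pineal gland, and mutations in the miR-96 seed cause progressive hearing loss. The seed, bases 2 to 8 of a miRNA, pairs with target mRNAs and largely decides which of them are repressed.

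The cluster lies on the minus strand of chromosome 6 in the NCBIM37 annotation, at chr6:30115918-30119737, a span of 3820 bp that no other annotated gene overlaps. In the direction of transcription Mir183 (70 bases) comes first, Mir96 (106 bases) follows after a gap of 116 bp and Mir182 (75 bases) after a further 3453 bp. The nearest annotated genes are Nrf1, on the plus strand, which ends 12460 bp away, and Ube2h, on the minus strand, whose 3′ end is 41552 bp away. The hairpins are printed below 5′ to 3′ because the strand use described later refers to their arms, with the guide in capitals on the 5′ side and the star in capitals on the 3′ side.
Mir183, chr6:30119668-30119737: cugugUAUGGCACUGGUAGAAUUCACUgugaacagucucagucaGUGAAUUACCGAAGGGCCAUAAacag
Mir96, chr6:30119446-30119551: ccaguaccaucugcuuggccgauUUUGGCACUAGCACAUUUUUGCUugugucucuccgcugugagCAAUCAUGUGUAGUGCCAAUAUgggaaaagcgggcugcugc
Mir182, chr6:30115918-30115992: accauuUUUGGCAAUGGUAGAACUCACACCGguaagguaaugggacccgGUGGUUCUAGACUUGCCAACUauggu

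The mature guides, from the RefSeq miRNA table of GRCm38.p6, are shown with the seed in capitals because the members form a family by sequence as well as by position. Their lengths were 22 bases for miR-183, 23 for miR-96 and 25 for miR-182.
miR-183: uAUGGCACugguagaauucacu
miR-96: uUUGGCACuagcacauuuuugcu
miR-182: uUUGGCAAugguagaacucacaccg

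miR-96 and miR-182 shared bases 2 to 7 (UUGGCA), and miR-96 and miR-183 were alike at 6 of the 7 seed bases. miR-183 and miR-182 were alike at 5 seed bases and shared a run of 8 bases, UGGUAGAA, outside the seed. No other mature miRNA of the RefSeq table had the seed of miR-183 or of miR-182. The seed of miR-96 is also that of miR-1271-5p, which is not a row of the read tables, and the seed of miR-96* is also that of miR-3475-5p. Compared with the other 1677 mature sequences, the closest to any member differed by 7 or more single-base edits, and for miR-183 and miR-182 the closest sequence was the other of the pair, at 7 edits.

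Mapped miRNA reads totalled 12449633 to 23471819 in the wild-type libraries and 18645810 to 23935544 in the Adar2-/- libraries, and levels are given as reads per 1000000 of these totals (RPM). Tests ran over the 399 miRNAs that reached 100 reads in each of the 6 libraries, and Spearman's rho between libraries over them was 0.937 to 0.982. One library stood apart in the members: in Adar2-/- replicate 3, 9 of these 399 miRNAs (2.26%) lay more than 4-fold below the median of the other 5 libraries, while in each of the other libraries 0 or 1 did so. Over all 399 miRNAs wild-type replicate 1 deviated as widely. The SD of the log2 deviation from the median of the other 5 was 0.746 there and 0.741 in Adar2-/- replicate 3. It was 0.433 to 0.573 in the remaining libraries. In wild-type replicate 1 and in Adar2-/- replicate 3, 2 miRNAs each lay more than 4-fold above that median. Since Adar2-/- replicate 3 was the library apart in the members, means and differences between genotypes below are given with and without it.

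miR-183 and miR-182 were among the most abundant miRNAs of the brain libraries, whereas miR-96 from the same precursor was far less abundant than either. The 3 wild-type libraries held miR-183 at 50165, 68887 and 65343 RPM in replicate order, and the 3 Adar2-/- libraries at 83418, 57033 and 9052 RPM. The first 5 of these libraries lay within 1.66-fold of each other and Adar2-/- replicate 3 lay far below them all, so that the genotypes overlapped. Wild-type brains averaged 61465 ± 9945 RPM (SD, n = 3) and Adar2-/- brains 49834 ± 37702 RPM (SD, n = 3), or 70226 RPM, above wild type, without replicate 3.

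miR-182, whose seed differs little from that of miR-96, had 63187, 86189 and 42728 RPM in the wild-type brains in the same order. The Adar2-/- brains had 103156, 32506 and 10036 RPM of it. The highest and the lowest value were both in Adar2-/- brains, 10.3-fold apart, and the 5 libraries other than Adar2-/- replicate 3 spread over 3.17-fold, more widely than for miR-183. The means were 64035 ± 21743 RPM in wild type and 48566 ± 48593 RPM in Adar2-/- (SD, n = 3 each), and without Adar2-/- replicate 3 the Adar2-/- mean was 67831 RPM, above that of wild type.

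miR-96, the member with the known link to deafness, stood at 229, 298 and 85.0 RPM in the wild-type brains and at 330, 124 and 70.6 RPM in the Adar2-/- brains. Here wild-type replicate 3 was nearly as low as Adar2-/- replicate 3, and the genotypes again overlapped. Wild type averaged 204 ± 109 RPM and Adar2-/- 175 ± 137 RPM (SD, n = 3 each), or 227 RPM without replicate 3, which again turned the direction. These levels rest on 1690 to 6789 reads per library for miR-96, on 216664 to 1569208 for miR-183 and on 240215 to 1963339 for miR-182.

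In the order of mean RPM over the 6 libraries miR-182 was 4th and miR-183 5th of all miRNAs listed, at 56300 ± 34719 and 55650 ± 25470 RPM (SD, n = 6). Their means differed by far less than either SD, and miR-127 just above them, at 60477 ± 19420 RPM, also lay within that spread. miR-126-3p, the next below, averaged 30476 ± 7068 RPM. miR-96 was 161st at 189 ± 112 RPM, between miR-222 at 191 ± 56.0 RPM and miR-672* at 188 ± 59.3 RPM, which did not differ from it beyond their spread. A mature miRNA is read from end to end, so reads were not scaled by length. How efficiently each sequence entered a library was not measured, so ratios between members are ratios of reads.

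Summed over its 6 rows, the cluster took 11.4%, 15.5% and 10.8% of each library's mapped reads in wild type. In Adar2-/- it took 18.7%, 8.97% and 1.92%. The share was 12.6 ± 2.58% in wild type and 9.86 ± 8.42% in Adar2-/- (SD, n = 3 each), and 13.8% in Adar2-/- without replicate 3, so the direction of the difference between the genotypes turned with that library. The 95% Wilson intervals reach at most 0.0177 percentage points to either side and cover counting error only, since reads are not independent molecules.

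**Figure D1:**
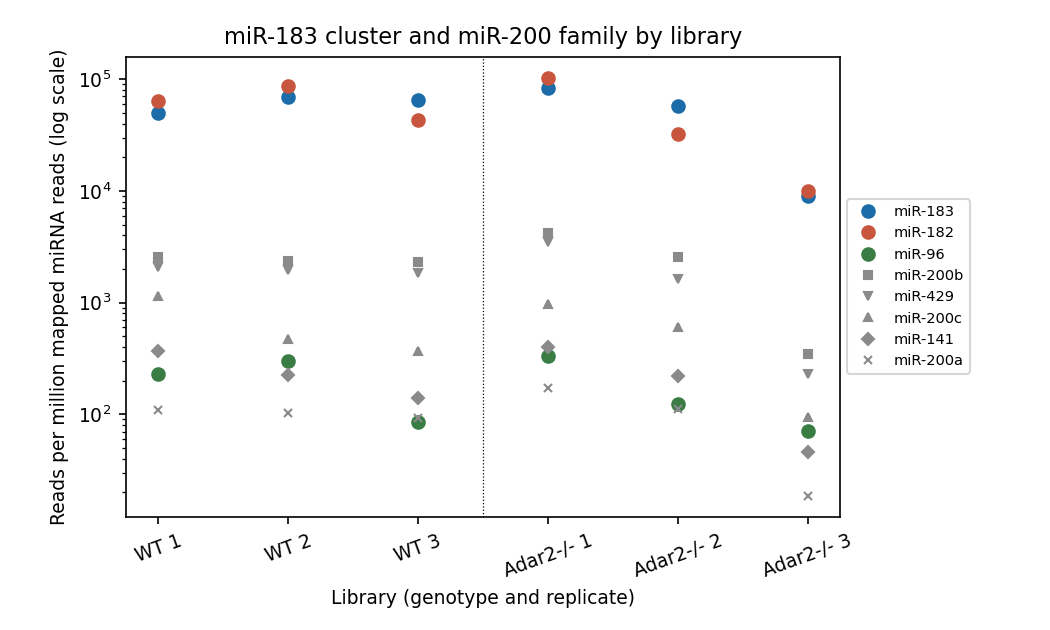
Levels of the 3 guide strands of the miR-183 cluster (coloured circles) and the 5 guide strands of the miR-200 family (grey symbols) in each library, in RPM on a log scale, with wild-type libraries left and Adar2-/- libraries right of the dotted line. All 8 miRNAs had their lowest value in Adar2-/- replicate 3, where miR-183 was at 9052 RPM and miR-200b at 348 RPM.

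The drop in Adar2-/- replicate 3 was shared by the members to unequal degrees. Relative to the median of the other 5 libraries, miR-183 was at 0.139-fold, miR-182 at 0.159-fold and miR-96 at 0.308-fold. Ordered by this value among the 399 miRNAs, miR-183 was the 3rd, miR-182 the 7th and miR-96 the 10th lowest, and miR-96 lay outside the 4-fold limit. 2 of the 3 guide strands were thus among the 9 miRNAs past that limit (2.26% of those tested), a count for which the members were in part chosen.

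The other 7 miRNAs past the limit were miR-429, miR-200b, miR-200a, miR-200c, miR-141, miR-200a* and miR-200b*, the miR-200 family, which is known for keeping cells epithelial through repression of Zeb1 and Zeb2. They ranged from 0.117-fold for miR-429 to 0.205-fold for miR-141, and the next miRNA after miR-96, miR-2145, was at 0.460-fold. The family is encoded elsewhere: Mir200b, Mir200a and Mir429 lie on chromosome 4, and Mir141 and Mir200c lie on chromosome 6, where the Mir200c hairpin is 94548603 bp from the miR-183 cluster. A guide of each of its seeds is printed, with the seed in capitals, to show that neither is the seed of a miR-183 cluster member.
miR-200b: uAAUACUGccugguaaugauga
miR-141: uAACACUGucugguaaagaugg

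**Figure D2:**
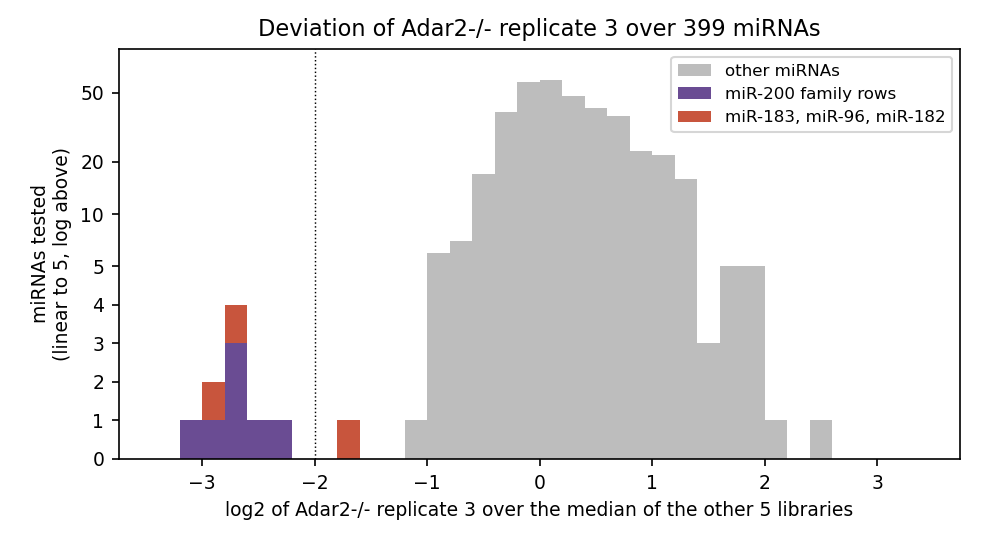
Distribution over 399 miRNAs of the log2 ratio of Adar2-/- replicate 3 to the median of the other 5 libraries, in bins stacked by group, with the number of miRNAs on an axis that is linear up to 5 and logarithmic above. The dotted line marks a 4-fold decrease, and left of it lie 9 miRNAs, miR-183, miR-182 and 7 rows of the miR-200 family, with miR-96 alone between them and the rest.

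The proportion of the miR-183 cluster to the miR-200 family was little changed in Adar2-/- replicate 3, in which both were lowest. The 5 guides of the miR-200 family summed to 6267, 5118 and 4783 RPM in the wild-type brains and to 9210, 5141 and 738 RPM in the Adar2-/- brains. For each of their reads there were 18.1, 30.4 and 22.6 reads of miR-183 cluster guides in the wild-type libraries and 20.3, 17.4 and 25.9 in the Adar2-/- libraries. This proportion varied 1.74-fold over the 6 libraries, whereas the miR-183 cluster itself varied 9.76-fold and the miR-200 family 12.5-fold, and both were highest in Adar2-/- replicate 1. This contrast rested on Adar2-/- replicate 3: over the other 5 libraries the cluster varied 2.08-fold, the miR-200 family 1.93-fold and the proportion still 1.74-fold. In whole brain, fewer cells that express a miRNA and less of it per cell cannot be told apart.

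**Figure D3:**
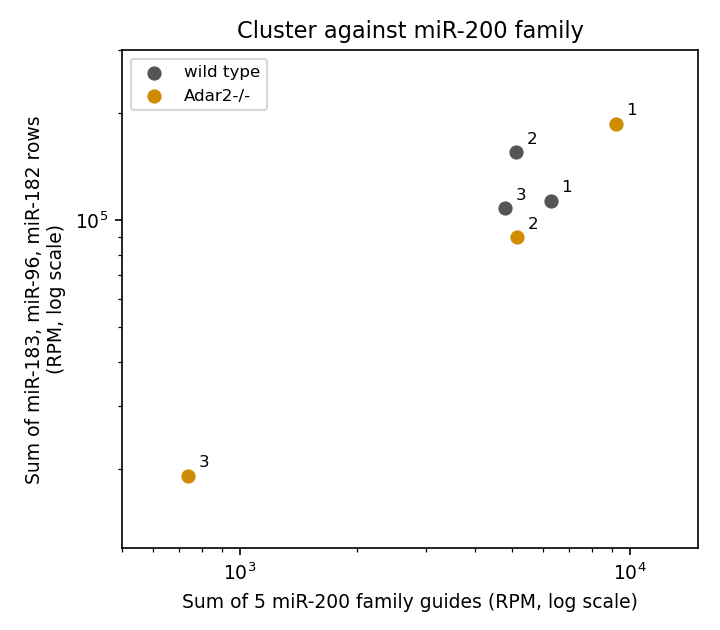
Summed RPM of the miR-183 cluster rows (y axis) against the summed RPM of the 5 miR-200 family guides (x axis) in each library, both on log scales, with the replicate number beside each point and colour by genotype. Adar2-/- replicate 3 lies lowest on both axes, at 19159 and 738 RPM, and Adar2-/- replicate 1 highest on both, at 186904 and 9210 RPM.

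Marker miRNAs of other cell types, listed with earlier results of these data known, were set beside the drop. The 5 epithelial markers are the miR-200 guides, already given above as more than 4-fold lower in Adar2-/- replicate 3. The 5 neuronal markers miR-124, miR-9, miR-128, miR-132 and miR-137 summed to 146525 RPM in this library, within the 138660 to 177895 RPM of the others, a sum that is mostly miR-9. Of the 5, miR-124 was at 1.88-fold, miR-128 at 2.88-fold and miR-137 at 3.18-fold the median of the others. miR-9 was at 0.898-fold and miR-132 at 0.985-fold. The neuroendocrine markers miR-375, miR-7a and miR-7b summed to 4714 RPM in this library, against 1289 to 7459 RPM in the others. Relative to the median of the others, miR-7a was at 2.52-fold, miR-7b at 2.41-fold and miR-375 at 0.740-fold. The highest sum was that of wild-type replicate 1, in which miR-375 was more than 4-fold above the median of the other libraries.

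The choroid plexus and ciliated cell markers were miR-204, miR-211 and the miR-34 and miR-449 miRNAs. They summed to 2079 RPM in Adar2-/- replicate 3 against 1212 to 1858 RPM. The 4 that were tested were at 1.18-fold to 1.63-fold the median of the others. miR-211, at most 2.68 RPM, was at 0.692-fold, and the miR-449 miRNAs, at most 1.71 RPM, were at 1.97-fold to 2.34-fold. Of the 8, miR-449b and miR-449c had fewer than 3 reads in at least 1 library. Blood cell markers summed to 2166 RPM, within the 1253 to 3561 RPM of the other libraries. Relative to the median of the others they ranged from 0.849-fold for miR-451 to 1.69-fold for miR-223, with miR-142-3p also lower, at 0.891-fold. Of the oligodendrocyte markers miR-219 was not listed under that name, and the other 2 summed to 620 RPM against 351 to 547 RPM. They differed in direction, with miR-338-3p at 1.35-fold the median of the other libraries and miR-338-5p at 0.876-fold. The rows miR-219-5p and miR-219-3p, which were not part of the list, were at 1.19-fold and 0.892-fold. The 9 miRNAs more than 4-fold lower in Adar2-/- replicate 3 were miR-183, miR-182 and rows of the miR-200 family. Lists other than the epithelial one could therefore hold none of them, and this contrast between lists is no separate result. By genotype the epithelial sum was 4783 to 6267 RPM in wild type and 738 to 9210 RPM in Adar2-/-, and what the amount of any cell type contributed to the levels of the members was not tested.

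The spread of the members over the libraries depended on Adar2-/- replicate 3 for miR-183 but much less for miR-96. Ranked by the SD of log2 RPM among the 399 miRNAs, miR-182 was 6th (SD 1.22), miR-183 7th (1.18) and miR-96 21st (0.95), against a median SD of 0.45. Without this library miR-183 fell to rank 320 with an SD of 0.28, below the median of 0.43. miR-182 was then at rank 50 (0.69) and miR-96 at rank 23 (0.84), so that miR-96 and miR-182 still varied more than most miRNAs among the remaining 5 libraries.

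The proportion of miR-182 to miR-183 within a library took a higher and a lower value, and each was found in both genotypes. For each read of miR-183 the wild-type libraries held 1.26, 1.25 and 0.654 reads of miR-182 and the Adar2-/- libraries held 1.24, 0.570 and 1.11. miR-183 was the more abundant in wild-type replicate 3 and Adar2-/- replicate 2 only, where it made up 60.4% and 63.6% of the guide reads, compared with 44.2% to 47.2% in the other 4 libraries. miR-182 made up 39.5% and 36.3% in these libraries, compared with 52.4% to 55.6% in the others.

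miR-96 was a minor part of the guide reads throughout. Its share of them was 0.202%, 0.192% and 0.0786% for the wild-type brains and 0.176%, 0.139% and 0.369% for the Adar2-/- brains. The 2 smallest shares were those of wild-type replicate 3 and Adar2-/- replicate 2, the same libraries in which miR-182 was low relative to miR-183, and the largest was that of Adar2-/- replicate 3, in which miR-96 had dropped the least. There were 128 to 769 reads of miR-183 and 142 to 503 reads of miR-182 for each read of miR-96.

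None of the ratios between guides differed by genotype beyond the spread between libraries. The log2 ratio of miR-182 to miR-183 was 0.01 ± 0.54 in wild type and -0.12 ± 0.60 in Adar2-/- (SD, n = 3 each, two-sided exact permutation test p = 0.5, difference -0.13, SE 0.47). For miR-96 to miR-183 it was -8.40 ± 1.02 in wild type and -7.94 ± 0.92 in Adar2-/- (SD, n = 3 each, exact permutation p = 0.7, difference 0.46, SE 0.80). The ratio of miR-96 to miR-182 was -8.42 ± 0.48 and -7.82 ± 0.60 (SD, n = 3 each, exact permutation p = 0.4, difference 0.60, SE 0.44). With 3 libraries against 3 the smallest p this test allows is 0.1, and differences of about 1 on the log2 scale lie within 2 SE of these values. Without Adar2-/- replicate 3 the first difference was -0.27 and the last was 0.26, and without wild-type replicate 3 the last was 0.32. The direction of the first turned without Adar2-/- replicate 2, to 0.21, or without wild-type replicate 1 or 2, to 0.03 and 0.02. That of miR-96 to miR-183 turned without wild-type replicate 3, to -0.13, or without Adar2-/- replicate 3, to -0.01.

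**Figure D4:**
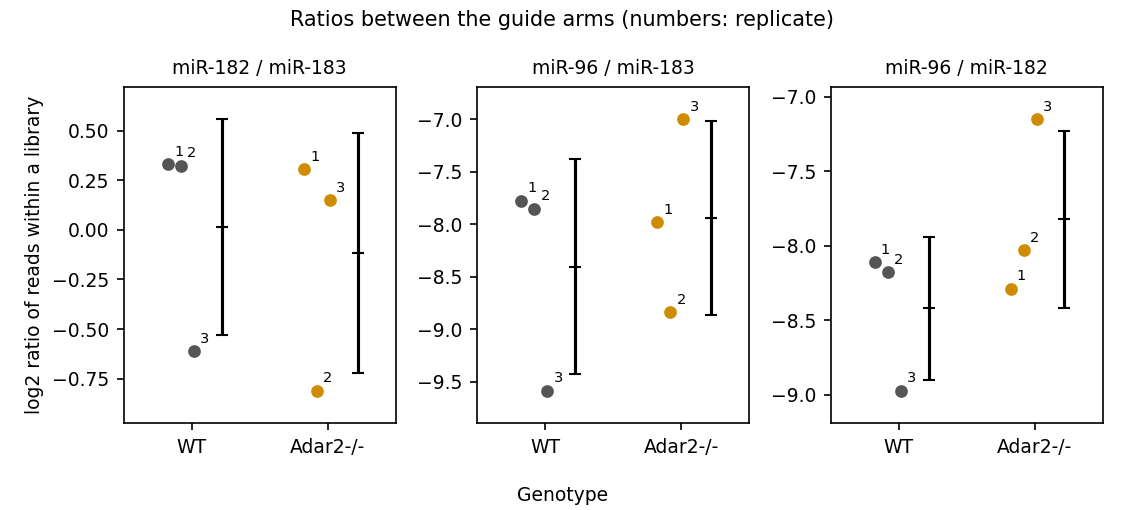
log2 ratios of reads between the guide strands within each library, one panel per pair, with points labelled by replicate and bars giving the mean ± SD of 3 libraries per genotype. Wild-type replicate 3 and Adar2-/- replicate 2 lie lowest for miR-182 to miR-183, at -0.61 and -0.81, and for miR-96 to miR-183, at -9.59 and -8.84, while Adar2-/- replicate 3 is highest in both panels of miR-96.

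Across the 6 libraries, Pearson's r of log2 RPM was 0.91 between miR-183 and miR-182 (Spearman's rho 0.83), 0.88 between miR-96 and miR-182 (rho 0.94) and 0.66 between miR-183 and miR-96 (rho 0.77). Without Adar2-/- replicate 3 these were 0.60, 0.90 and 0.37. miR-96 and miR-182 thus kept their likeness in level without that library, while both pairs with miR-183 lost part of theirs. The libraries share their totals among all miRNAs, so these values are a description.

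Of the miRNAs outside the cluster, those most like the mean log2 RPM of the 3 guides over the 6 libraries were miR-429 (r = 0.95), miR-200a (0.94), miR-200b (0.93), miR-141 (0.93) and miR-666-5p (0.90), and the median over all others tested was -0.33. Without Adar2-/- replicate 3 the first 4 had r = 0.80, 0.67, 0.62 and 0.68. When Adar2-/- replicates 1 and 3, the libraries farthest from the median of the guides, were left out, r was 0.71 for miR-429, 0.17 for miR-200a, -0.21 for miR-200b and 0.48 for miR-141, so the likeness of miR-200a and miR-200b rested on these libraries. miR-666-5p kept r = 0.96 over the remaining 4, but its level varied only 1.30-fold over all 6 libraries.

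The star strands were close to absent, and Mir182 and Mir183 were among the most one-sided hairpins listed. miR-183* had 14, 16 and 21 reads in wild type and 22, 26 and 9 in Adar2-/-. For miR-182* there were 0, 1 and 2 reads in wild type and 0, 2 and 6 in Adar2-/-. For miR-96* there were 1, 3 and 3 reads in wild type and 5, 5 and 0 in Adar2-/-. Each star thus had its reads spread over libraries of both genotypes, and miR-182* had most of its reads in Adar2-/- replicate 3, the library with the fewest reads of its guide.

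Over all 6 libraries Mir183 gave 15.8 star reads per 1000000 reads of the hairpin (95% Wilson interval 13.1 to 19.0, 108 of 6844773). Mir182 gave 1.65 per 1000000 (0.919 to 2.95, 11 of 6683207). Mir96 gave 758 per 1000000 (473 to 1214, 17 of 22421), so its star share was far larger than that of the other hairpins although its star strand had few reads. These pooled intervals, which cover counting error only, do not overlap, but in Adar2-/- replicate 3 alone those of Mir182 and Mir183 do. The interval of Mir96 in that library, 0 to 2268 per 1000000 with 0 star reads, covers both. That library held 6 of the 11 reads of miR-182*, and without it, an alternative added with the data in view, Mir182 gave 0.776 per 1000000 (0.331 to 1.82), Mir183 14.9 and Mir96 820.0. Among the 245 hairpins with both arms listed and 100 or more reads in each library, ordered by the share of the minor arm, Mir182 was 2nd, Mir183 4th and Mir96 24th from the most one-sided, and the median was 29457 per 1000000. A hairpin with few reads can fall at either end of this order by counting error alone.

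By library, miR-183* made up 22.4, 10.2 and 13.7 per 1000000 hairpin reads in wild type and 14.1, 19.3 and 41.5 in Adar2-/-, the last with an interval of 21.9 to 78.9. The log2 ratio of star to guide was -16.06 ± 0.57 in wild type and -15.44 ± 0.80 in Adar2-/- (SD, n = 3 each, exact permutation p = 0.4), a difference of 0.62 (SE 0.57) that fell to 0.18 without Adar2-/- replicate 3. For Mir182 the star share was 25.0 per 1000000 in Adar2-/- replicate 3 (11.4 to 54.5) and at most 2.61 per 1000000 in every other library with a star read. In wild-type replicate 1 and Adar2-/- replicate 1, with 0 star reads, a limit of 3 reads would be 3.81 and 1.56 per 1000000. The Wilson intervals there reach 4.88 and 2.00 per 1000000. The share of miR-96* was 351 to 1702 per 1000000 in the libraries with a star read. For the 0 reads in Adar2-/- replicate 3 a limit of 3 reads would be 1775 per 1000000, below the Wilson bound of 2268. No ratio was tested for Mir182 and Mir96, since each had a library without a star read.

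**Figure D5:**
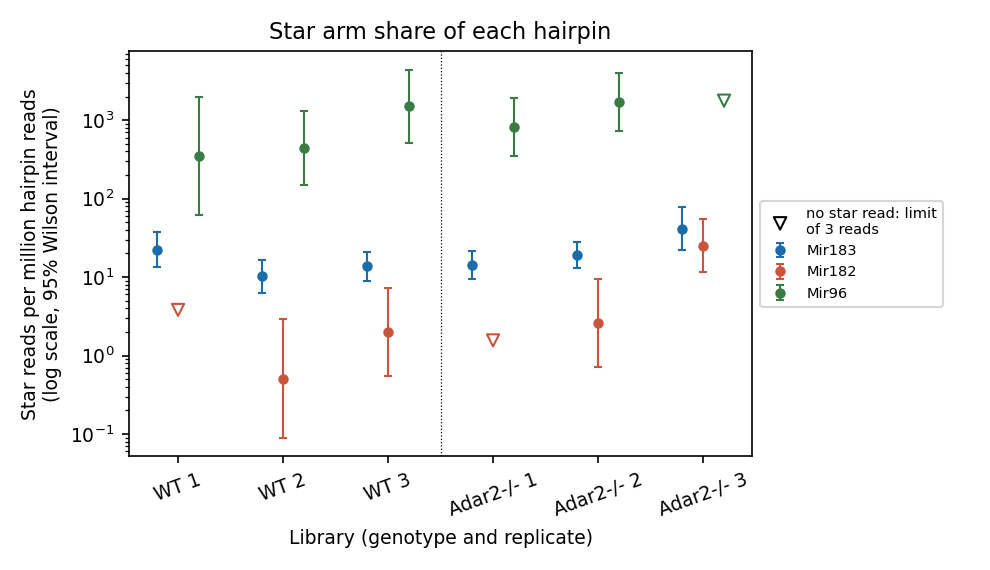
Star reads per 1000000 reads of the hairpin in each library, on a log scale, for Mir183, Mir182 and Mir96, with 95% Wilson intervals. Open triangles mark libraries without a star read and are placed at the limit of 3 reads, not at the Wilson bound. Mir96 lies above the others in every library with a star read of it, and Mir182 reached 25.0 per 1000000 in Adar2-/- replicate 3.

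Loss of ADAR2 was not accompanied by a change in the level of any guide strand that exceeded the spread between libraries. The log2 fold change of Adar2-/- over wild type, from edgeR's quasi-likelihood test on the counts, was -0.40 for miR-182 (SE 0.67), -0.30 for miR-183 (SE 0.62) and -0.22 for miR-96 (SE 0.59), each with a Benjamini-Hochberg adjusted p of 0.989. 0 of the 3 guides were called at an adjusted p of 0.05, as were 0 of all 399 miRNAs tested (0.0%). 0 of the 3 had an unadjusted p under 0.05, compared with 13 of 399 (3.26%). The star strands had too few reads to be tested, and for each guide a 2-fold change lies within 2 SE of 0, so a change of that size was not detectable with this number of brains.

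The direction of these fold changes depended on Adar2-/- replicate 3. Without it they were 0.08 for miR-182, 0.19 for miR-183 and 0.15 for miR-96, all of the opposite sign. Without Adar2-/- replicate 1, in which the members were highest, miR-182 fell by 1.59 on the log2 scale. Its unadjusted p was under 0.05 and its adjusted p above it. In that fit 48 of 408 miRNAs had an unadjusted p under 0.05. Without both libraries of replicate number 1 miR-182 fell by 1.60, with an adjusted p of 0.0549 from edgeR. There 95 of 437 miRNAs had an unadjusted p under 0.05. When replicates of the same number were compared, Adar2-/- over wild type was 1.66, 0.828 and 0.139 for miR-183, 1.63, 0.377 and 0.235 for miR-182 and 1.44, 0.417 and 0.831 for miR-96. 0 of the 3 guides moved the same way in all 3 replicate numbers, which 64 of the 399 miRNAs did (16.0%), and 0 had genotypes that did not overlap, compared with 23 of 399 (5.76%).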

How the data were processed

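Whole brain small RNA of 3 wild-type and 3 Adar2-/- mice was used. The authors removed adaptors with Cutadapt, mapped reads with NextGenMap to mature miRBase sequences, discarded reverse-strand hits and gave a weight to each read that hit more than 1 miRNA equally well. How these weights became whole numbers is not given in the sources used here. The authors deposited raw read counts of 1055 miRNAs in 3 tables, each with 1 library per genotype, and 12 blank lines were dropped. The submitters' processing notes name the build mm9. Depth was 12449633 to 23935544 mapped reads, and labels do not give the day or batch of preparation. p-values measure the spread between libraries of each genotype, in which brain, preparation and lane cannot be told apart.

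The members and marker lists were chosen with earlier results of these data known. Named outside the members were the 5 miRNAs most like the mean of the guides, those sharing a seed, marker miRNAs, rank neighbours and those over 4-fold lower in Adar2-/- replicate 3. RPM, ratios and Wilson intervals came from scripts in Python 3.11.15 with pandas 2.3.3, numpy 2.4.6 and scipy 1.17.1, and figures were drawn with matplotlib 3.10.9. A 0 was given the limit of 3 reads. Counts were tested with edgeR 4.0.16 (glmQLFit and glmQLFTest) in R 4.3.3 for the 399 miRNAs that reached 100 reads in each library, with total mapped reads as library size, no block and Benjamini-Hochberg adjustment over all of them. The SE was derived from the fold change and the F statistic. Ratios between genotypes were set against each other by exact permutation tests, two-sided. Alternatives were TMM factors, other totals, DESeq2 1.42.0, a minimum of 10 reads or none, a replicate block, medians, a pseudocount of 1 read, both arms summed, and each library or replicate number left out. Hairpin and mature sequences were taken from the RefSeq table and placed on NCBIM37, where each hairpin fell on its annotated position.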

Additional observations from a re-analysis of the deposited data

How the results depend on the processing

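0 of the guides were called in the 17 alternative fits, DESeq2 included, which called 1 of the 399 miRNAs and gave 40 an unadjusted p under 0.05. The fit without a read minimum also took in the star strands and called 0 of the members. Its log2 fold changes were 1.15 for miR-182*, -0.02 for miR-183* and 0.37 for miR-96*, from at most 26 star reads in a library. Leaving out a library or a replicate number moved the log2 fold change from -1.60 to 0.10 for miR-182. For miR-183 it moved from -1.02 to 0.24 and for miR-96 from -1.07 to 0.35. The direction of all 3 thus depended on single libraries. 37 of 437 miRNAs were called without replicate number 1, against 0 of 399 with all libraries. Libraries of the same replicate number did not deviate together (r = -0.00103, -0.0756 and -0.0136), so the numbers were not taken to pair the brains, and with a replicate block the values were -0.97, -0.73 and -0.33, and the other scalings and read minimums kept the direction of all 3. The difference in log2 ratio ranged from -0.58 to 0.37 for miR-182 to miR-183, from -0.60 to 1.19 for miR-96 to miR-183 and from -0.018 to 0.98 for miR-96 to miR-182 when libraries or replicate numbers were left out. Medians in place of means turned miR-96 to miR-183 to -0.13. The star to guide ratio of Mir183 ranged from 0.13 to 1.26. The difference in cluster share, -2.71 percentage points, ranged from -7.74 to 1.26 over 14 alternatives. The difference was -7.74 without replicate number 1 and -7.13 without Adar2-/- replicate 1. Single libraries had an SD of 2.58 points in wild type and 8.42 points in Adar2-/-, or 6.88 points without Adar2-/- replicate 3. These SDs describe libraries rather than a difference of means, which was not tested. Counting error was small beside the spread between libraries for the guides but not for the stars. The cause of these changes was not tested.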

Other observations

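Several miRNAs ran opposite to the cluster, and were picked after their values were seen. Pearson's r was taken against the mean log2 RPM of the 3 guides over the 6 libraries. The value was -0.99 for miR-145, -0.99 for miR-212-3p, -0.98 for miR-496, -0.95 for miR-299* and -0.94 for miR-29a. The median r over all tested miRNAs outside the cluster was -0.33. Spearman's rho was -0.94 for miR-145 and -1 for miR-212-3p. Without Adar2-/- replicate 3, r was -0.97 for both. In that library miR-145 was at 1.79-fold, miR-212-3p at 2.38-fold, miR-496 at 2.01-fold, miR-299* at 1.71-fold and miR-29a at 2.10-fold the median of the other 5. The cluster took 1.92% to 18.7% of the reads to which every RPM is scaled, so these values are not independent of those of the members, and the part of this shared total was not tested.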
